A study of Homo sapiens with 6 samples.

Results

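The 42 genes described here make up the NRF2, glutathione and antioxidant system: the regulators of the NRF2 response, enzymes that make and reduce glutathione, thioredoxins, peroxiredoxins, peroxidases, dismutases, glutathione transferases, further NRF2-associated enzymes and ferritin. They were taken by symbol from a list, and all 42 were found among the 17758 genes of the deposited table. RNA was measured by poly(A)-selected sequencing in 6 libraries of T47D, an oestrogen receptor-positive line from a human breast ductal carcinoma, grown in serum-containing RPMI medium. In the shCUEDC1 group (3 libraries) the cells stably carried lentiviral short hairpin RNA against CUEDC1, whose product carries a CUE domain, a fold that binds ubiquitin. In the shNC group (3 libraries) they carried a non-targeting hairpin, so both groups were transduced. The series asks what CUEDC1 controls downstream, with glucose metabolism as its main theme. The replicates are called biological, but neither the number of hairpins nor the number of separate infections is stated. An off-target effect therefore cannot be told apart from loss of CUEDC1, and the spread behind each p-value is that among these libraries.

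NRF2, encoded by NFE2L2, is a transcription factor that is held at a low level because the adaptor KEAP1 presents it to a cullin ubiquitin ligase. Oxidants and electrophiles modify KEAP1, and NRF2 then enters the nucleus, pairs with small MAF proteins and binds antioxidant response elements in the genes of detoxifying and reducing enzymes. Those enzymes work in linked chains: glutathione and thioredoxin pass electrons from NADPH to peroxidases and peroxiredoxins, transferases attach glutathione to reactive compounds, and transporters export the products. Since NRF2 is controlled mainly through its protein, its own RNA level says little about its activity.

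Between 18924327 and 19731609 estimated reads per library were counted, and 13824 genes passed the filter on low counts. The targeted gene CUEDC1 was at 23.2, 24.4 and 22.8 TPM (a level scaled to transcript length and to the library total) in shCUEDC1 1, 2 and 3, against 79.4, 80.5 and 70.6 TPM in shNC 1, 2 and 3. The library shNC 3 stood apart. Over genes averaging at least 10 CPM (reads scaled to the library total), the SD of its log2 difference was 0.236 from shNC 1 and 0.256 from shNC 2. Between shNC 1 and shNC 2 it was 0.107. The shCUEDC1 libraries were at 0.231 to 0.239 from shNC 1 and shNC 2, so shNC 3 lay about as far from both as the knockdown did. Where leaving out shNC 3 changes the call of a gene named here, both values are given. The exceptions are ESR1 and FOXA1, for which only the value without shNC 3 is given. The luminal markers ESR1, PGR, GATA3, FOXA1, KRT8, KRT18 and EPCAM were all detected, at mean levels of at least 39.8 TPM in shCUEDC1 and 38.4 TPM in shNC, and none was called with all libraries. Without shNC 3, ESR1 (log2 change 0.30, edgeR adjusted p = 1.92e-06), FOXA1 (0.20, adjusted p = 0.000393) and PGR (0.22, adjusted p = 0.00137) were called higher, PGR being at -0.08 with all libraries. Against the mean of shNC 1 and 2, shNC 3 was at 0.74 in PGR and -0.71 in KRT8 on the log2 scale. Of 8 markers of leukocytes, endothelium and stroma, the T-cell gene CD3E was at 0 TPM in every library except shCUEDC1 3, and 6 others were under 5 TPM in every library. The exception was ACTA2, smooth muscle actin, at 27.3 to 31.1 TPM in shCUEDC1 and 24.4 to 41.5 TPM in shNC. None of the 5 tested was called with all libraries, and ACTA2 was called lower without shNC 3 (log2 change -0.43, edgeR adjusted p = 5.50e-05, against -0.23 with all). The part of these markers in the results was not tested.

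Of the 42 genes, 40 passed the filter, and 10 of these differed between the groups (edgeR quasi-likelihood test, Benjamini-Hochberg adjusted p below 0.05 over all genes tested). Of these, 8 were lower in shCUEDC1, namely NQO1, GCLM, GPX3, GSTM4, ABCC1 and the 3 aldo-keto reductases AKR1C1, AKR1C2 and AKR1C3. The other 2, KEAP1 and GSTK1, were higher. The share called was 25% of the tested members, against 9.96% of all genes tested. For lower calls it was 20% of the members against 4.77% of all genes, and for higher calls 5% against 5.19%. The 3 AKR1C genes are neighbours with reading frames 91.3% to 98% identical, so they may not be separate calls. The genes were also chosen with earlier results of these data known, and the difference between the shares was not tested. The 30 members that were not called lay between -0.21 and 0.29 on the log2 scale. The median log2 change was -0.02 over the members and -0.004 over all genes. AKR1C3 passed 2-fold, and every other called member changed by less. RNA from bulk cells cannot tell less RNA per cell from fewer cells of a kind.

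**Figure D1:**
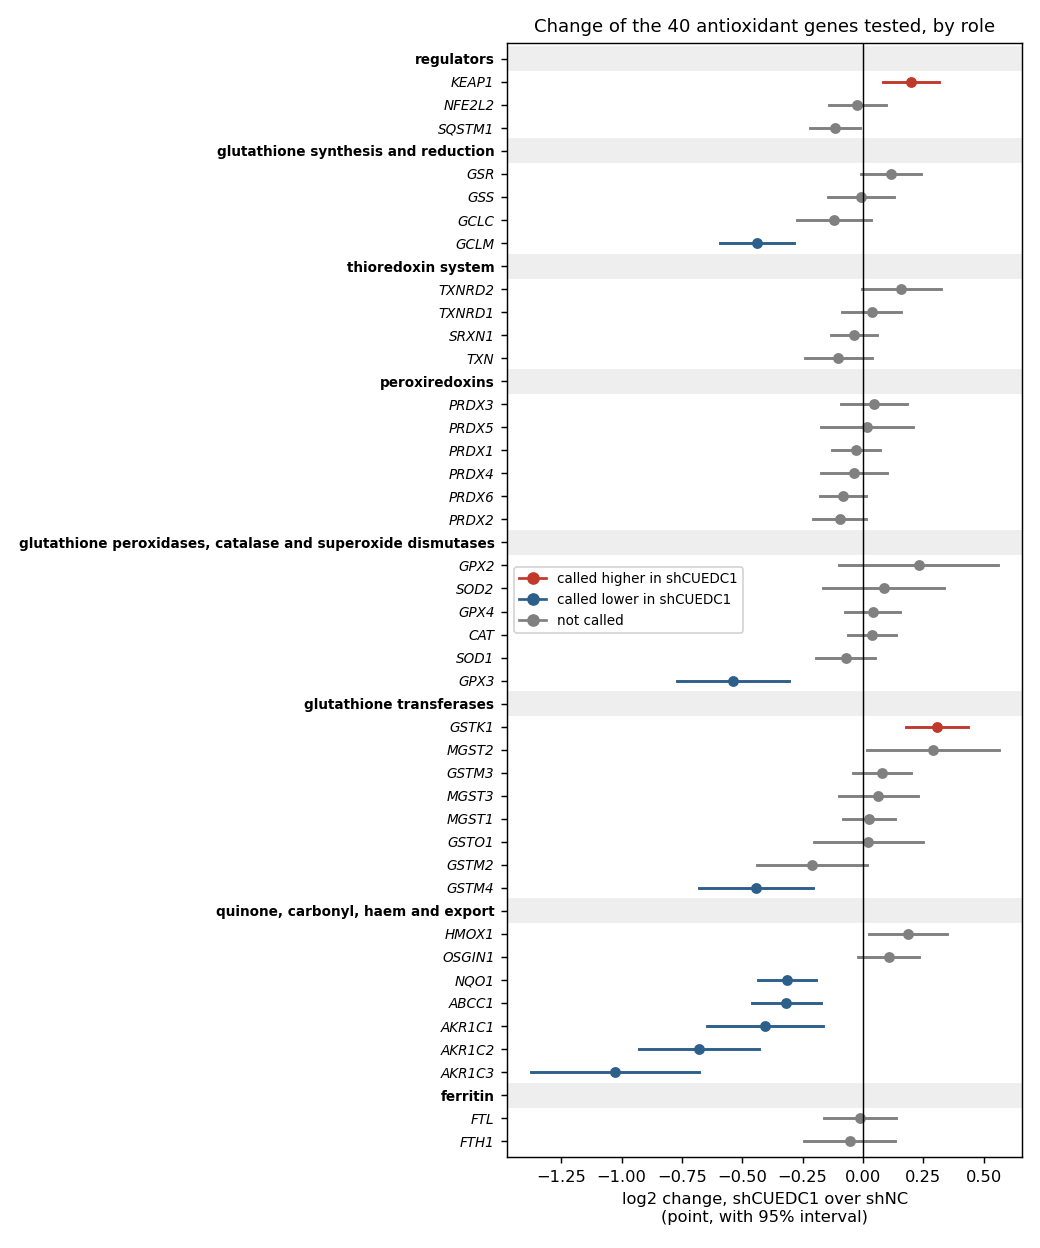
Log2 change (horizontal axis, shCUEDC1 over shNC, points with 95% intervals from edgeR) of the 40 tested genes, grouped by role from top to bottom. The 8 genes called lower (blue) include 5 of the 7 in the quinone, carbonyl, haem and export group, the closely similar AKR1C genes among them. All intervals of the peroxiredoxins and ferritins span 0.

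Without shNC 3, 40% of the tested members were called, against 28.1% of all genes tested. The calls were 5 higher and 11 lower among members, against 14.3% higher and 13.8% lower among all genes. The 10 members stayed called in the same direction. A further 6 were added: SOD2, MGST2 and HMOX1 higher, and TXN, PRDX2 and SOD1 lower. Counting only whether the libraries of the groups overlap in CPM, 6 tested members were higher and 10 lower in every shCUEDC1 library than in any shNC library. That is 40% of the members, against 31.3% of all genes tested.

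**Figure D2:**
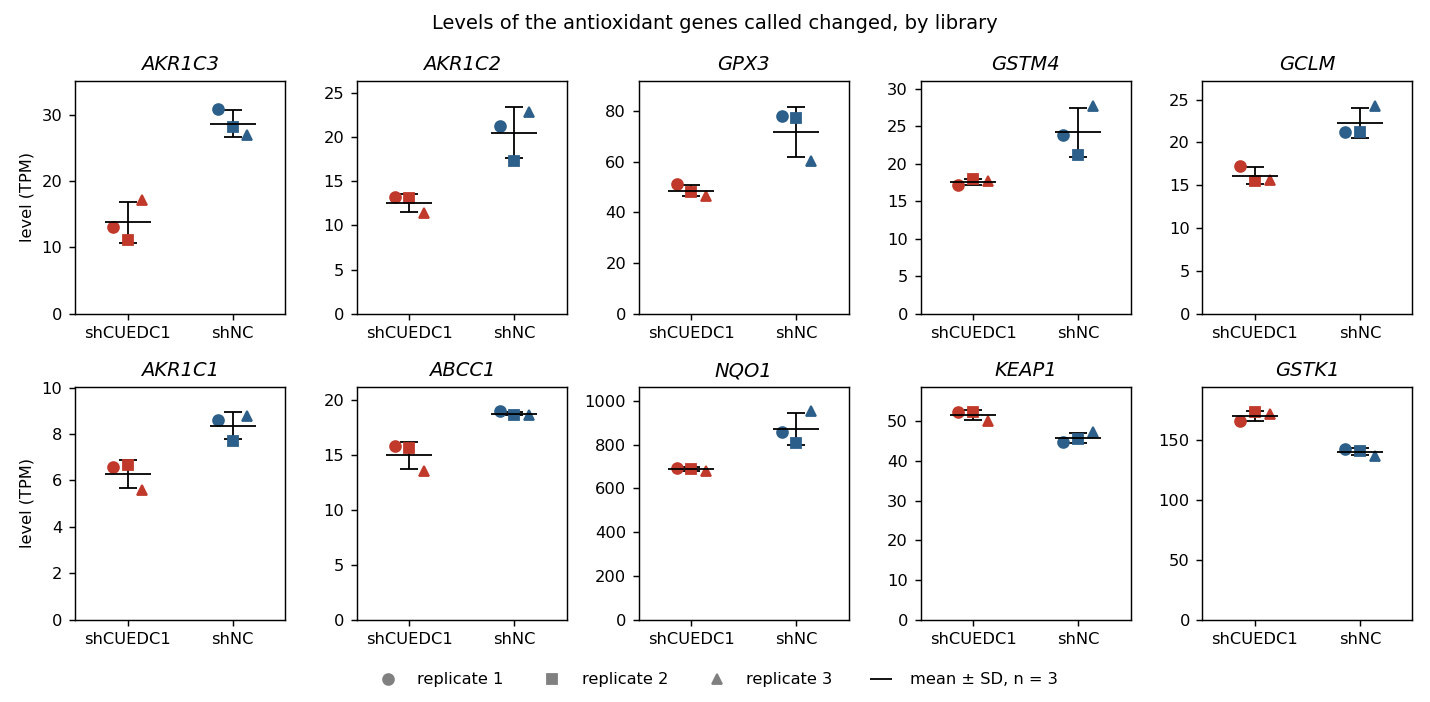
Levels in TPM (vertical axes, each from 0) of the 10 genes called changed, with 1 point per library, shCUEDC1 left and shNC right, and mean ± SD of 3 libraries. In each panel the 3 shCUEDC1 libraries lie wholly below the 3 shNC libraries, except KEAP1 and GSTK1, where they lie wholly above.

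Among the regulators, NFE2L2 itself was at 117, 116 and 118 TPM in shCUEDC1 1, 2 and 3, against 116, 117 and 131 TPM in shNC 1, 2 and 3. The groups overlapped, and shNC 3 was the highest library. On the log2 scale it differed by -0.02, with a 95% interval of -0.14 to 0.09 (edgeR adjusted p = 0.833), and by 0.02 without shNC 3. KEAP1, the repressor of NRF2 protein, was at 52.2, 52.3 and 50.1 TPM in shCUEDC1, against 44.7, 45.4 and 47.3 TPM in shNC. KEAP1 was higher in all 3 shCUEDC1 libraries, by 14.8% or 0.20 in log2 terms (SE 0.0515, edgeR adjusted p = 0.0375). That call was lost when any library other than shNC 3 was left out, with a highest adjusted p of 0.158 without shCUEDC1 2. It was also lost with limma-trend on FPKM (adjusted p = 0.0542 and 0.0548 for pseudocounts of 0.5 and 0.1). SQSTM1, the autophagy receptor p62 that competes with NRF2 for KEAP1, was at 372, 384 and 380 TPM in shCUEDC1, against 397, 422 and 436 TPM in shNC. The SQSTM1 groups did not overlap, but its log2 difference of -0.12 was not called (edgeR adjusted p = 0.152).

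Antioxidant response elements were looked for as the core TGACNNNGC on either strand in RefSeq promoter windows (GRCh38.p14, 250 bases before to 50 bases after the gene start, first listed window per gene). Windows were present for 33 members. Of these, 5 or 15.2% held a match, against 14.7% of the windows of 14152 genes in the deposited table. Matches were in GCLM (GCTTAGTCA, reverse strand), TXNRD1 (TGACTTCGC, and GCTCCGTCA on the reverse strand), GPX2 (GCTAAGTCA, reverse strand), GSTP1 (TGACTCAGC) and GSTO1 (TGACTGAGC and TGACACAGC). The GSTP1 match overlapped a match to the AP-1 motif TGANTCA, and the others did not. Among members called lower, 1 of 7 windows held the core, and among those not called, 3 of 22. A match is a description of letters and not of binding, and elements outside these windows were not searched. The windows of GCLM, called lower, and TXNRD1, not called, are shown. Both hold the core (in capitals) within the last 100 bases before or at the start. For TXNRD1, 2 windows are listed, and the first begins the gene at the outer end of its annotated span. Which TXNRD1 start these cells use was not tested, so its unchanged level cannot be set against this window. The GCLM window is chr1:93909381-93909680, minus strand, with the match at positions -34 to -26 from the start, and the TXNRD1 window is chr12:104215529-104215828, plus strand, with matches at -99 to -91 and -8 to 1.
GCLM: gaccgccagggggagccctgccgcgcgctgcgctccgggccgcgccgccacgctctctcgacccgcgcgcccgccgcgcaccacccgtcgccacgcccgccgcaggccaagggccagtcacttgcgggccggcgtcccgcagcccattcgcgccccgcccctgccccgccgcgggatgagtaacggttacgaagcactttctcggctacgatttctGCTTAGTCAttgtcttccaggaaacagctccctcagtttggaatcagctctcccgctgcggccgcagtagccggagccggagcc
TXNRD1: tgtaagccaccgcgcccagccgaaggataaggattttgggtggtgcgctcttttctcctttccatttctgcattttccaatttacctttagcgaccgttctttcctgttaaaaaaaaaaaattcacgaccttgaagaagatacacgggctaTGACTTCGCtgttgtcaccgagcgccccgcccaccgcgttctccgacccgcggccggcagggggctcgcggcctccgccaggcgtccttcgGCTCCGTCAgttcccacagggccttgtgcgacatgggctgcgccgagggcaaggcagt

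Of the 4 genes of glutathione synthesis and reduction, 1 was called, where 9.96% of all genes tested were called. GCLM, the modifier subunit of glutamate-cysteine ligase (chromosome 1 from 93885205 to 93909456, minus strand), was at 17.3, 15.5 and 15.6 TPM in shCUEDC1 1, 2 and 3, against 21.3, 21.2 and 24.2 TPM in shNC 1, 2 and 3. All 3 shCUEDC1 libraries were lower than any shNC library. GCLM fell by 26.2%, or -0.44 as a log2 change (SE 0.0688, edgeR adjusted p = 0.00421), and was called in each of the 6 fits with 1 library left out. GCLC, the catalytic subunit of the same enzyme, was at 59.7, 58.1 and 58.4 TPM in shCUEDC1, against 61.6, 60.1 and 74.1 TPM in shNC. The groups stood just apart in TPM and overlapped in CPM. Its log2 difference was -0.12 (edgeR adjusted p = 0.311) and -0.04 without shNC 3, and the difference between the subunits was not tested.

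GSS, glutathione synthetase, was at 116, 116 and 118 TPM in shCUEDC1, against 120, 126 and 113 TPM in shNC. GSR, the reductase that regenerates glutathione, was at 70.1, 70.9 and 64.8 TPM in shCUEDC1, against 65.0, 65.9 and 62.0 TPM in shNC. The groups overlapped in both genes on the TPM scale. Their log2 differences were -0.01 for GSS (edgeR adjusted p = 0.953) and 0.12 for GSR (edgeR adjusted p = 0.229).

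With all libraries, none of the 4 thioredoxin genes was called by edgeR, DESeq2 or limma, and 0 had an unadjusted edgeR p below 0.05. TXN, the small thiol reductase, was at 826, 910 and 889 TPM in shCUEDC1 1, 2 and 3, against 982, 986 and 905 TPM in shNC 1, 2 and 3. Here shNC 3 lay among the shCUEDC1 libraries. The log2 difference was -0.10 with all libraries (edgeR adjusted p = 0.345) and -0.15 without shNC 3 (edgeR adjusted p = 0.00838). TXNRD1, the cytosolic selenoprotein that reduces thioredoxin, was at 372, 348 and 338 TPM in shCUEDC1, against 353, 368 and 336 TPM in shNC, and the groups overlapped. TXNRD2, its mitochondrial counterpart, differed by 0.16 (edgeR adjusted p = 0.209), with all 3 shCUEDC1 libraries higher. SRXN1, sulfiredoxin, which repairs over-oxidised peroxiredoxins and is a known NRF2 target, differed by -0.04 (95% interval -0.13 to 0.06, edgeR adjusted p = 0.656).

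The 6 peroxiredoxins, which reduce hydrogen peroxide through reactive cysteines, had log2 differences from -0.10 (PRDX2) to 0.04 (PRDX3). With all libraries, none was called by edgeR, DESeq2 or limma, and 0 had an unadjusted edgeR p below 0.05. PRDX1, a cytosolic form, was at 1415, 1402 and 1404 TPM in shCUEDC1, against 1499, 1443 and 1447 TPM in shNC. The groups did not overlap in TPM, but the 95% interval of its log2 difference ran from -0.13 to 0.07. PRDX5, found in mitochondria and peroxisomes, was at 482, 487 and 495 TPM in shCUEDC1, against 520, 518 and 417 TPM in shNC. The lowest library was shNC 3. The log2 difference of PRDX5 was 0.02 with all libraries and -0.08 without shNC 3 (edgeR adjusted p = 0.925 and 0.128). Without shCUEDC1 3 it was -1.2e-05. PRDX2 was called lower without shNC 3 (log2 change -0.13, edgeR adjusted p = 0.0197).

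Of the glutathione peroxidases, catalase and superoxide dismutases, GPX3 was the 1 called of 6 tested, where 9.96% of all genes tested were called. GPX3, the secreted glutathione peroxidase of plasma (chromosome 5 from 151020438 to 151028993, plus strand), was at 51.1, 48.1 and 46.6 TPM in shCUEDC1, against 77.9, 77.1 and 60.4 TPM in shNC. The groups did not overlap, and shNC 3 lay between the other shNC libraries and the knockdown. GPX3 fell by 31.2%, which is -0.54 in log2 terms (SE 0.104, edgeR adjusted p = 0.0115), and by 0.66 on the log2 scale without shNC 3. Leaving out any single library of the knockdown ended its call, the adjusted p reaching 0.0722 without shCUEDC1 3.

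GPX4, the peroxidase that reduces lipid peroxides and protects from ferroptosis, was at 374, 381 and 395 TPM in shCUEDC1, against 382, 368 and 391 TPM in shNC. GPX4 differed by 0.04 on the log2 scale, with an interval from -0.07 to 0.15 (edgeR adjusted p = 0.686). GPX2, the gastrointestinal form, averaged 14.1 ± 1.98 TPM in shCUEDC1 and 12.2 ± 1.05 TPM in shNC (SD, n = 3 each), with overlapping groups. GPX1, the ubiquitous cytosolic form, was listed at 0.24 TPM or less in every library, with at most 2 counts in any shCUEDC1 library, and was not tested. CAT, catalase, differed by 0.04 (edgeR adjusted p = 0.673).

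SOD1, the cytosolic copper and zinc dismutase, was at 707, 704 and 711 TPM in shCUEDC1, against 794, 759 and 719 TPM in shNC. The TPM groups did not overlap, but the log2 difference of -0.07 was not called (edgeR adjusted p = 0.459). It was -0.12 without shNC 3 (edgeR adjusted p = 0.0228). SOD2, the mitochondrial manganese dismutase, was at 147, 155 and 151 TPM in shCUEDC1, against 124, 126 and 154 TPM in shNC. Only shNC 3 reached the knockdown level. The log2 difference of SOD2 was 0.09 with all libraries (edgeR adjusted p = 0.686) and 0.25 without shNC 3 (edgeR adjusted p = 5.74e-06). SOD2 was thus called only when that library was left out.

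Of the 8 glutathione transferases tested, 1 was called higher and 1 lower. Among all genes tested, 5.19% were called higher and 4.77% lower. GSTK1, the kappa-class transferase of mitochondria and peroxisomes (chromosome 7 from 143244093 to 143270854, plus strand), was at 165, 174 and 172 TPM in shCUEDC1, against 142, 141 and 137 TPM in shNC. Every shCUEDC1 library was higher than any shNC library. GSTK1 rose by 23.8%, or 0.31 in log2 terms (SE 0.0570, edgeR adjusted p = 0.00932), and lost its call without shCUEDC1 2 or 3 (adjusted p = 0.0637 and 0.0609).

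Mu-class genes lie side by side on chromosome 1. GSTM4 (from 109656081 to 109674836, plus strand) was at 17.1, 18.0 and 17.7 TPM in shCUEDC1, against 23.8, 21.2 and 27.7 TPM in shNC. The groups did not overlap, and GSTM4 fell by 26.5%, or -0.44 in log2 terms (SE 0.105, edgeR adjusted p = 0.0271). It stayed called in 2 of the 6 fits with 1 library left out, those without shNC 2 or shNC 3, and reached an adjusted p of 0.124 without shCUEDC1 1. The neighbours GSTM2 and GSTM3 were not called. GSTM2 averaged 35.1 ± 1.76 TPM in shCUEDC1 and 41.6 ± 5.42 TPM in shNC (SD, n = 3 each), a log2 difference of -0.21 (edgeR adjusted p = 0.231). With 1 library left out, that of GSTM2 ranged from -0.30 without shNC 2 to -0.13 without shNC 3, and it was not called in any of these fits. GSTM3 averaged 191 ± 5.92 TPM in shCUEDC1 and 185 ± 9.86 TPM in shNC (SD, n = 3 each), a log2 difference of 0.08 (edgeR adjusted p = 0.410). GSTO1, of the omega class, averaged 112 ± 8.40 TPM in shCUEDC1 and 112 ± 13 TPM in shNC (SD, n = 3 each) and overlapped between the groups. The longest reading frames of GSTM2 and GSTM4 were 81.4% identical, and their annotated exons share 375 bases, so the assignment of reads between them is uncertain.

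MGST1, a membrane-bound transferase and peroxidase, was the most abundant transferase, at 1070, 1050 and 1081 TPM in shCUEDC1, against 1088, 1084 and 1039 TPM in shNC. The groups overlapped, and the 95% interval of the log2 difference was -0.08 to 0.13. MGST3 was at 292, 305 and 307 TPM in shCUEDC1, against 314, 287 and 273 TPM in shNC, with overlapping groups. MGST2 averaged 67.2 ± 7.76 TPM in shCUEDC1 and 56.2 ± 8.03 TPM in shNC (SD, n = 3 each). It was called without shNC 3 (log2 change 0.40, edgeR adjusted p = 0.00337) but not with it (0.29, edgeR adjusted p = 0.177). GSTP1, the pi-class enzyme abundant in many epithelia, was listed between 0.30 and 1.19 TPM and was not tested.

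**Figure D3:**
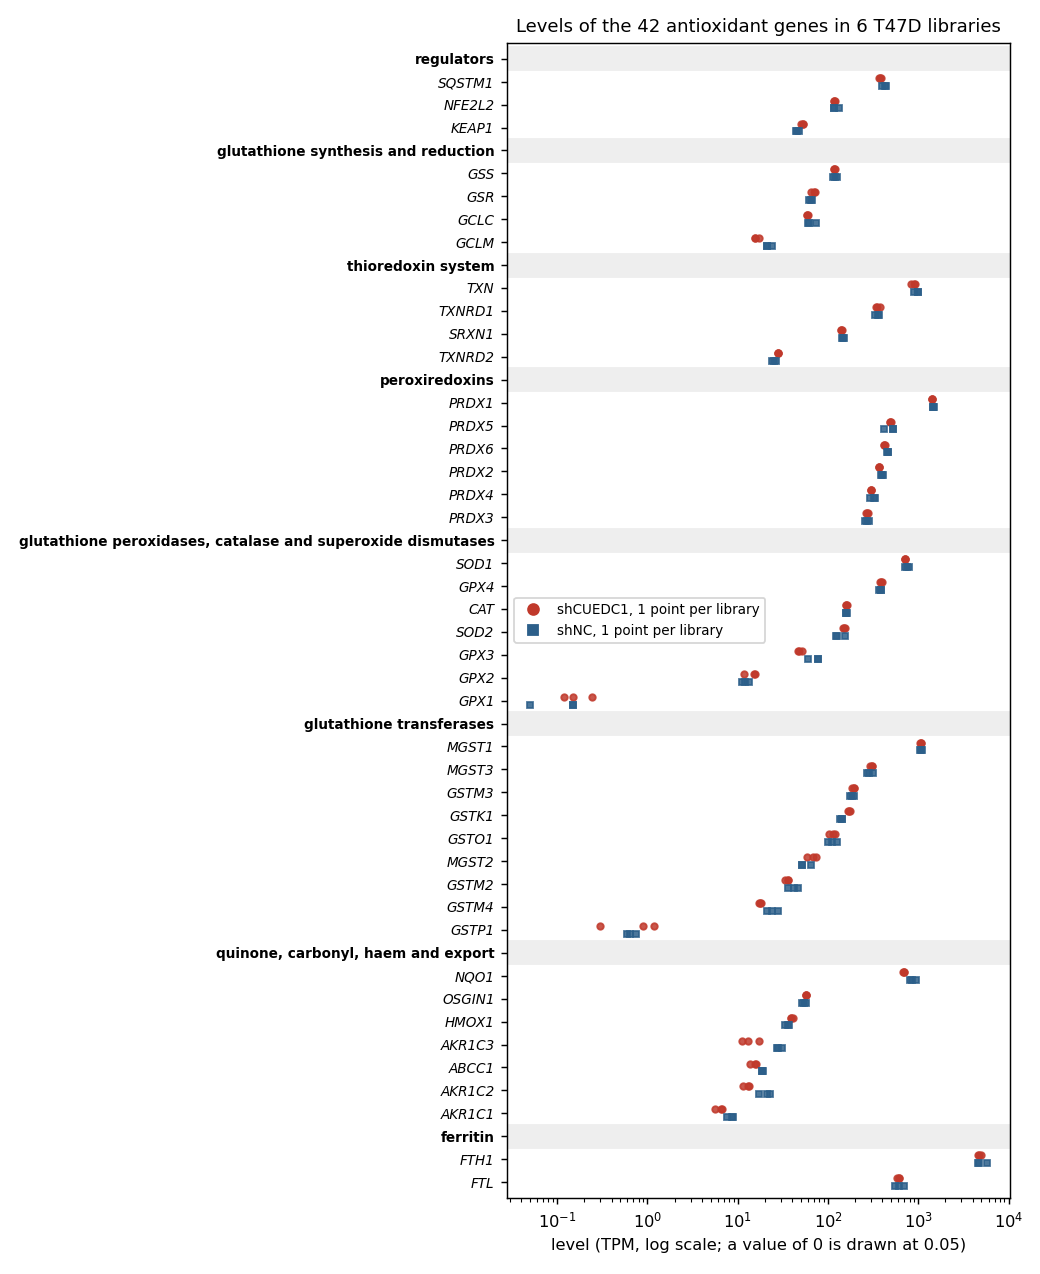
Levels of all 42 genes in TPM (horizontal log axis), 1 point per library, with shCUEDC1 as circles above shNC as squares for each gene and a level of 0 drawn at the left edge. Levels run from 0.24 TPM or less for GPX1 and 1.19 TPM or less for GSTP1 to at least 4543 TPM for FTH1, and for most genes the groups lie on top of each other at this scale.

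NQO1, HMOX1, OSGIN1, ABCC1 and the AKR1C genes form the group with the most calls, 5 lower of 7. Among all genes tested, 4.77% were called lower. The 5 include the closely similar AKR1C genes, which may share reads, and the lists were chosen with earlier results of these data known. With all libraries, none of the 7 was called higher by edgeR, DESeq2 or limma, and 1, HMOX1, was higher at an unadjusted edgeR p below 0.05. NQO1, the quinone reductase widely used as a readout of NRF2 (chromosome 16 from 69706996 to 69726951, minus strand), was the most abundant of the called genes and ranked 175 of 17758 by mean TPM. It was at 695, 690 and 679 TPM in shCUEDC1, against 859, 809 and 952 TPM in shNC. The shCUEDC1 libraries were tightly grouped and all below the lowest shNC library. NQO1 fell by 19.7%, or -0.32 in log2 terms (SE 0.0537, edgeR adjusted p = 0.00599). It was called in 5 of the 6 fits with 1 library left out and had an adjusted p of 0.0510 without shCUEDC1 2. The antisense gene AC092115.2 covers 17.7% of the annotated exon bases of NQO1, and whether counting used strand is not stated.

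AKR1C1, AKR1C2 and AKR1C3 are neighbouring genes on chromosome 10 (4963253 to 4983283, 4987400 to 5018031 and 5035354 to 5107686) for hydroxysteroid dehydrogenases that inactivate progesterone, reduce androgens and make prostaglandins. All 3 were lower in every shCUEDC1 library. AKR1C3 was at 13.1, 11.1 and 17.2 TPM in shCUEDC1 1, 2 and 3, against 30.9, 28.2 and 27.0 TPM in shNC 1, 2 and 3. It had the largest change of the 40 tested genes with all libraries, a drop of 50.9% (log2 change -1.03, 95% interval -1.38 to -0.68, edgeR adjusted p = 0.00381). With 1 library left out, the log2 change of AKR1C3 ranged from -1.23 to -0.89. AKR1C2 was at 13.2, 13.1 and 11.4 TPM in shCUEDC1, against 21.3, 17.3 and 22.9 TPM in shNC, or -0.68 in log2 terms (SE 0.111, edgeR adjusted p = 0.00510). AKR1C2 and AKR1C3 were called in each fit with 1 library left out. AKR1C1 was at 6.56, 6.68 and 5.59 TPM in shCUEDC1, against 8.59, 7.70 and 8.79 TPM in shNC, or -0.41 in log2 terms (SE 0.107, edgeR adjusted p = 0.0416). AKR1C1 kept its call in 2 of the 6 such fits, without shNC 2 or shNC 3, and its highest adjusted p was 0.165 without shCUEDC1 3. DESeq2 did not call AKR1C1 (adjusted p = 0.0615).

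The AKR1C genes are closely similar copies, so their separate values depend on how reads were shared among them. The longest reading frames of AKR1C1 and AKR1C2 were 98% identical over 972 bases, and AKR1C3 was 91.9% identical to AKR1C1 and 91.3% to AKR1C2. Their promoter windows, printed because the 3 genes fell together, held no match to the element core. They are chr10:4963165-4963464 (plus strand) for AKR1C1, chr10:5003808-5004107 (minus strand) for AKR1C2 and chr10:5048531-5048830 (plus strand) for AKR1C3. The first listed starts of all 3 lie inside the annotated spans of these genes.
AKR1C1: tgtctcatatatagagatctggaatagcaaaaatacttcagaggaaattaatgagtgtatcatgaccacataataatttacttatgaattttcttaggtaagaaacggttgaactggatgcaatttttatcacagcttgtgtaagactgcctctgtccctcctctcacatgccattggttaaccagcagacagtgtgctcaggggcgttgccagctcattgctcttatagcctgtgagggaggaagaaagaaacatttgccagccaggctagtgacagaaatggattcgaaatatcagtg
AKR1C2: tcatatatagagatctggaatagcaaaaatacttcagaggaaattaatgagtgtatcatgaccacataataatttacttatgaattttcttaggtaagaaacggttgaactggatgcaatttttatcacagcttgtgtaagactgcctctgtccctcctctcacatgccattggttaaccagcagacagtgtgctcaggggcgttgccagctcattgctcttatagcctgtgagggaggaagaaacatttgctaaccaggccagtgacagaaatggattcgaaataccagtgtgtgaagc
AKR1C3: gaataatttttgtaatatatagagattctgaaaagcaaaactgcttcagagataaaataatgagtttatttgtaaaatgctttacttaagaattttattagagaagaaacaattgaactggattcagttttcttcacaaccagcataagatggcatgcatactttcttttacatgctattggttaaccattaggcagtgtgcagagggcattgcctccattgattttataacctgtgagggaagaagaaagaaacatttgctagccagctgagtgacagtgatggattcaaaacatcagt

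ABCC1, the export pump for glutathione conjugates also known as MRP1 (chromosome 16 from 15949577 to 16143074, plus strand), was at 15.8, 15.6 and 13.6 TPM in shCUEDC1, against 19, 18.7 and 18.7 TPM in shNC. The shNC libraries lay close together, and every shCUEDC1 library was lower. ABCC1 fell by 19.8%, or -0.32 in log2 terms (SE 0.0641, edgeR adjusted p = 0.0136), and the call was lost without shCUEDC1 2, shCUEDC1 3 or shNC 1, with a highest adjusted p of 0.0688.

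HMOX1 and OSGIN1 stood on the other side of 0 from NQO1. HMOX1, the haem oxygenase induced by NRF2 and by loss of BACH1, was at 38.6, 39.1 and 41.3 TPM in shCUEDC1, against 33.6, 36.1 and 37.0 TPM in shNC. The groups did not overlap, but the log2 difference of 0.19 was not called (SE 0.0726, edgeR adjusted p = 0.144). It was called without shNC 3 (0.20, edgeR adjusted p = 0.0352). OSGIN1, an oxidative stress-induced growth inhibitor, was at 57.5, 56.9 and 57.2 TPM in shCUEDC1, against 51.6, 54.5 and 56.3 TPM in shNC. Its log2 difference was 0.11 (edgeR adjusted p = 0.273).

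The ferritin chains, which store iron, made up much of the summed level. FTH1, the heavy chain, ranked 13 of all genes, at 4543, 4731 and 4961 TPM in shCUEDC1, against 4571, 4691 and 5841 TPM in shNC. FTL, the light chain, was at 580, 607 and 610 TPM in shCUEDC1, against 557, 605 and 688 TPM in shNC. In both chains shNC 3 was the highest library and the other 5 overlapped. Their log2 differences were -0.05 and -0.01 with all libraries (edgeR adjusted p = 0.740 and 0.931), and 0.05 and 0.06 without shNC 3. With all libraries, neither was called by edgeR, DESeq2 or limma, and 0 had an unadjusted edgeR p below 0.05. FTH1 has many processed pseudogenes that may take or give reads.

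Summed over the 42 genes, the level was 14791, 15063 and 15340 TPM in shCUEDC1 1, 2 and 3, against 15504, 15474 and 16582 TPM in shNC 1, 2 and 3. Without the ferritin chains it was 0.967%, 0.973% and 0.977% of all TPM in shCUEDC1, against 1.04%, 1.02% and 1.01% in shNC. The sum was lower in every shCUEDC1 library both ways, and it is given as a description.

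**Figure D4:**
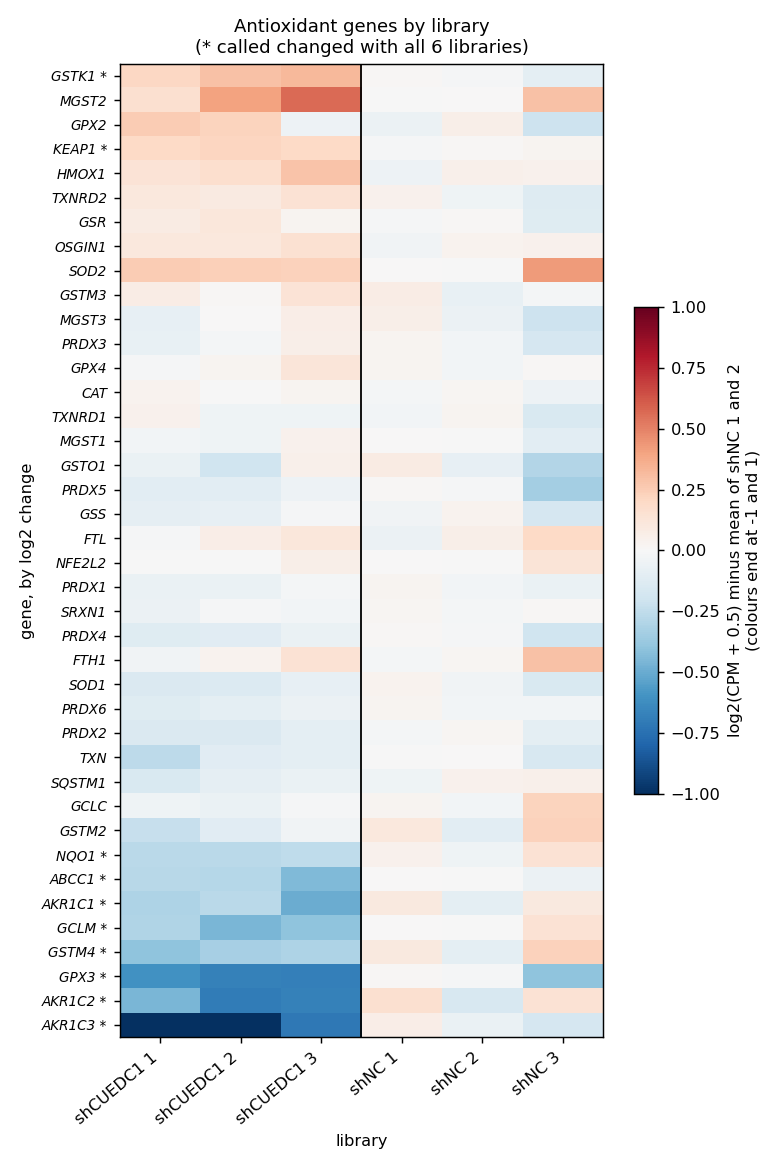
Log2(CPM + 0.5) of the 40 tested genes (rows, ordered by log2 change) in each library (columns, shCUEDC1 left), minus the mean of shNC 1 and 2, with blue for lower and red for higher. Asterisks mark the 10 called genes, and the 8 called lower, at the foot, are blue in all 3 shCUEDC1 libraries, and shNC 3 departs from shNC 1 and 2 in genes such as SOD2, PRDX5 and GPX3.

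Beyond these genes, a list of 89 further genes of the same pathway was examined, of which 77 were tested. In shCUEDC1, 5 were higher and 3 lower, which is 10.4% of the tested genes and near the 9.96% of all genes. TKT, the transketolase of the non-oxidative pentose phosphate path, fell to 226, 224 and 211 TPM in shCUEDC1, against 293, 284 and 274 TPM in shNC (log2 change -0.35, SE 0.0497, edgeR adjusted p = 0.00256). Every shCUEDC1 library was below the lowest shNC library.

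The biliverdin reductases BLVRA and BLVRB, which act after haem oxygenase, rose by 0.30 and 0.29 on the log2 scale (edgeR adjusted p = 0.00789 and 0.0343). GSTA4, an alpha-class transferase for lipid aldehydes, rose by 0.50 (edgeR adjusted p = 0.0227), and BTRC, an F-box protein that can also present NRF2 for degradation, by 0.24 (edgeR adjusted p = 0.0387). The export pumps ABCC3 and ABCC2 fell by 0.63 and 1.57 (edgeR adjusted p = 0.00664 and 0.0288). ABCC2 was at a low level, 0.27, 0.42 and 0.43 TPM in shCUEDC1, against 1.5, 1.28 and 0.57 TPM in shNC. TKT and ABCC3 were called in every fit with 1 library left out, BLVRA in 5 (not without shCUEDC1 3), BLVRB in 2 (without shNC 2 or shNC 3), and GSTA4, BTRC and ABCC2 in the fit without shNC 3 alone.

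Other direct partners of NRF2 were not called with all libraries: the small MAF genes MAFF, MAFG and MAFK differed by -0.16, -0.22 and -0.14, the competitor BACH1 by 0.12, and the ligase scaffold CUL3 by -0.05. Without shNC 3, MAFG and MAFK were called lower (log2 changes -0.28 and -0.19, edgeR adjusted p = 0.00205 and 0.0110), whereas MAFF differed by -0.02 (edgeR adjusted p = 0.919) and CUL3 by -0.0085 (edgeR adjusted p = 0.916). SLC7A11, the cystine carrier that feeds glutathione synthesis and a known NRF2 target, was at 3.84, 3.46 and 3.66 TPM in shCUEDC1, against 4.21, 4.17 and 6.18 TPM in shNC (log2 difference -0.37, edgeR adjusted p = 0.119). Every shCUEDC1 library was lower than any shNC library. Without shNC 3, the highest library, the difference was -0.18. Without shNC 3, 13 genes of the list were called higher and 20 lower, or 41.8%, against 28.1% of all genes.

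**Figure D5:**
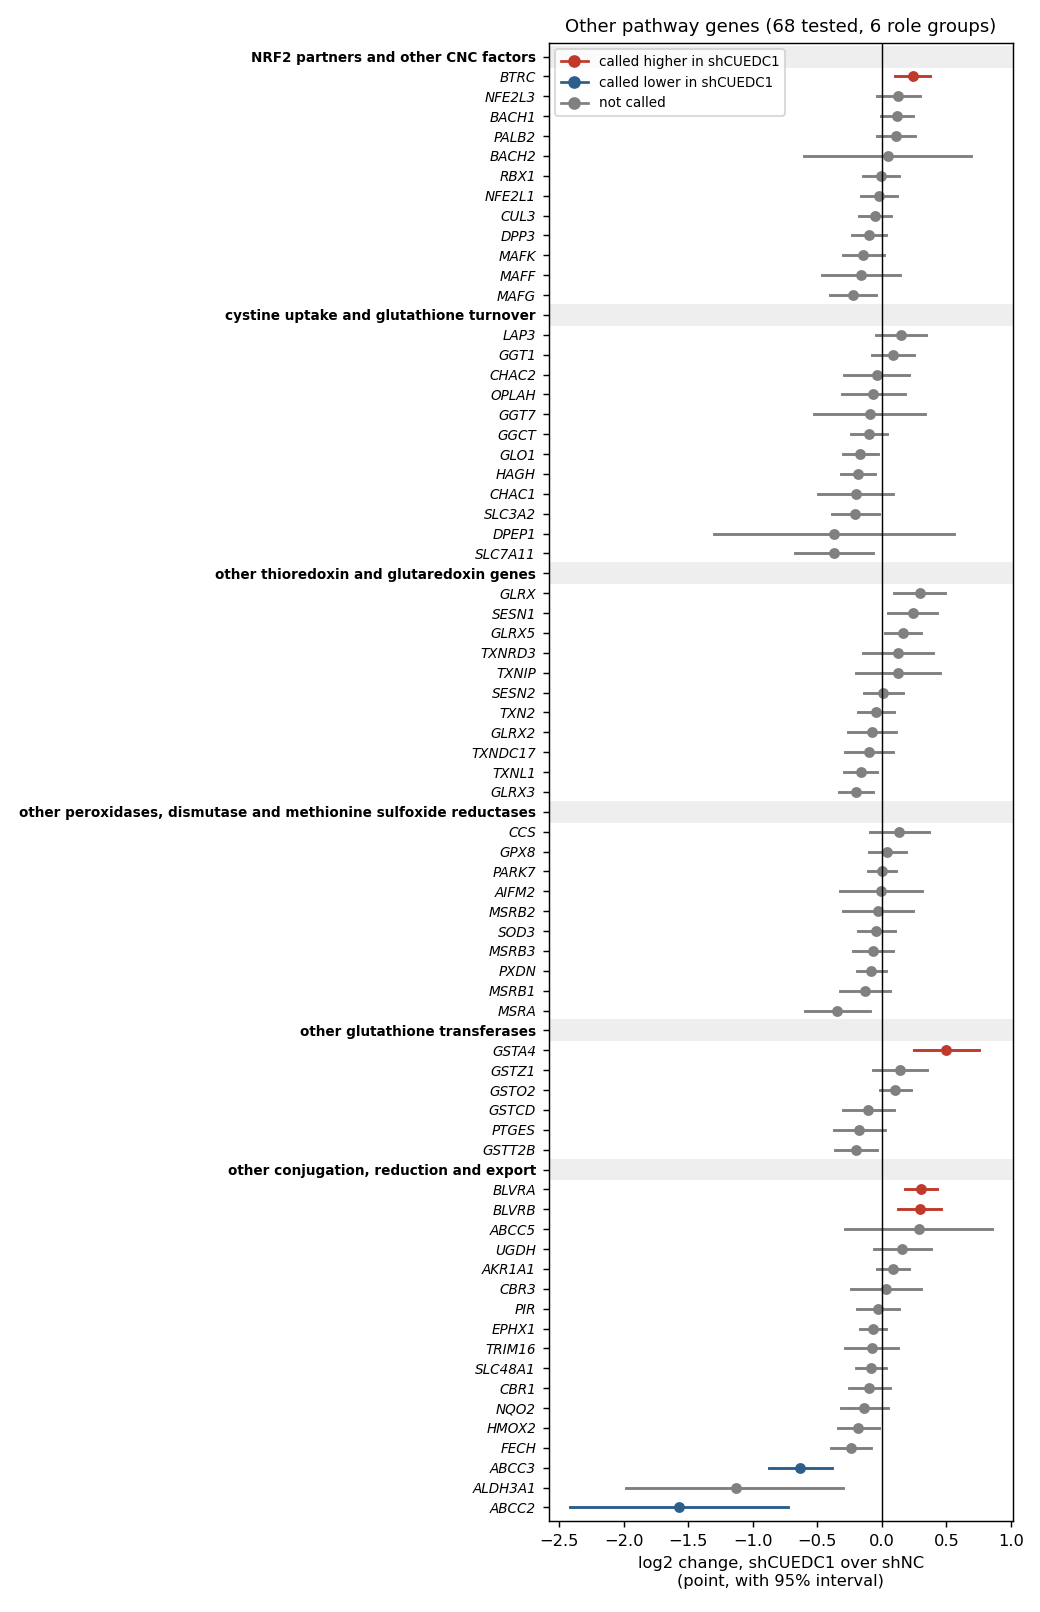
Log2 change (horizontal axis, shCUEDC1 over shNC, points with 95% intervals from edgeR) of 68 further pathway genes in 6 role groups, those of NADPH supply not being drawn. Red and blue mark the 4 genes called higher and the 2 called lower, where 9.96% of all genes tested were called. The group of cystine uptake and glutathione turnover has none. Of its 12 tested genes, 4 were lower at an unadjusted edgeR p below 0.05, against 1764 of all 13824 tested.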

How the data were processed

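Poly(A)-selected RNA of 6 T47D libraries was sequenced, 3 with shCUEDC1 and 3 with shNC. The genome build named in the submitters' processing notes is GRCh38 (p13). No source used here names the aligner or the counter, or says whether counting used strand. Estimated counts were deposited by the authors, which are not normalised and of which 21.8% to 24.7% per library are whole numbers, together with TPM and FPKM values scaled by the authors to length and library size.

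The deposited estimated counts were rounded to whole numbers, genes were kept by the filterByExpr function at a minimum count of 10, and TMM factors were applied. Groups were compared by the quasi-likelihood F test of edgeR 4.0.16 in R 4.3.3, on all genes, with Benjamini-Hochberg adjustment over the 13824 tested and a threshold of 0.05. Levels are the deposited TPM, and a fold change is shCUEDC1 over shNC on the log2 scale. Alternatives were RLE factors, other low-count filters, DESeq2 1.42.0, limma 3.58.1 (voom, and log2 of deposited FPKM plus 0.5 or 0.1), a block for the replicate number, and fits that drop 1 library each. The study itself used DESeq2, per the series' design text. Replicates of a group differed by more than sampling noise (chi-square per degree of freedom at least 2.49), so each was counted as 1 sample.

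The genes and lists were chosen with earlier results of these data known. Values per library are given for members called, for NFE2L2 and KEAP1, and for the 2 most abundant members of each role group, plus a few others chosen after their values were seen. Of the other pathway genes, up to 5 called in each direction are named, except 1 that is counted but not reported here, and SLC7A11 and the partners of NRF2 were added after their values were seen. Gene positions and exon overlaps come from GENCODE v29 on GRCh38, and promoter windows from RefSeq on GRCh38.p14. The sequences of 9 members had no window in that table: GSS, GSR, PRDX1, PRDX6, SOD1, MGST2, HMOX1, ABCC1 and FTH1.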

Additional observations from a re-analysis of the deposited data

How the results depend on the processing

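RLE factors, either low-count filter and limma-voom left the calls of the 40 tested genes as reported, with 2 higher and 8 lower. DESeq2 did not call AKR1C1 (adjusted p = 0.0615), and limma-trend on FPKM did not call KEAP1 with either pseudocount (adjusted p = 0.0542 and 0.0548), which left 1 member higher. Among the other pathway genes, the main fit called 5 higher and 3 lower. DESeq2 called 6 higher and 3 lower, and limma-voom 5 higher and 2 lower. With either pseudocount, limma-trend on FPKM called 3 higher and 4 lower. In edgeR 1 called gene of that list passed 2-fold (ABCC2), in DESeq2 1 did, and in the limma fits 0 did.

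Same-numbered libraries of the groups did not deviate together (correlations 0.00911, 0.0707 and 0.0267), so the numbers were not taken to pair them. With the replicate number as a block in edgeR, 1 member was higher and 7 lower, KEAP1 (adjusted p = 0.0793) and AKR1C1 (0.0738) not being called.

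Leaving out 1 library gave 0 to 5 members higher and 3 to 11 lower, 1 to 13 other pathway genes higher and 2 to 20 lower, and 468 to 3925 genes called in all. The upper ends all come from the fit without shNC 3. A fit on 5 libraries has less power, so lower counts do not point to a library. The 0 members higher without shCUEDC1 2 or shCUEDC1 3 compare with 3 and 2 at an unadjusted p below 0.05 (edgeR, the 1 tool run there).

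The sign of 10 small differences, none of them called, turned in 1 or more of these fits. Over the 6 fits the log2 difference of NFE2L2 ranged from -0.0465 to 0.0239, GSS from -0.0584 to 0.0375, TXNRD1 from -0.00995 to 0.0751 and PRDX3 from -0.00654 to 0.0861. It ranged from -0.0969 to 0.00157 for PRDX4, from -0.0828 to 0.0815 for PRDX5, from -0.0671 to 0.117 for GSTO1, from -0.00730 to 0.0443 for MGST1, from -0.112 to 0.0525 for FTH1 and from -0.0728 to 0.0604 for FTL. Except for GSS and PRDX4, each turned without shNC 3. The cause was not tested. GPX1 and GSTP1 had too few reads for a comparison at this depth.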
